A study of Rattus norvegicus with 4 samples.

Results

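The neurofilament subunits Nefh, Nefm and Nefl, α-internexin (Ina) and peripherin (Prph) make up the intermediate filaments of the neuronal cytoskeleton. The 5 genes were taken as a gene family, by symbol and not by a threshold on their values, with earlier results of these data known. Of 12111 genes named by 1 platform symbol on the array, the 5 members had 6 probes, and 4 of these probes, for 4 genes, could be read under the naming rule described below. The only Nefl probe lay in a stretch of the table that the rule leaves out, and its values are given separately as a candidate reading.

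Neurofilaments assemble from light, medium and heavy subunits, and in many neurons also from α-internexin or peripherin. The heavy and medium subunits carry long tails that are phosphorylated in the axon, and the filaments are known for setting the calibre of large myelinated axons. Peripherin is a type III filament protein of peripheral neurons, known in the vestibular ganglion as a marker of thin afferents that end as boutons. Calretinin-positive afferents, by contrast, are known for thick axons that end as calyces around type I hair cells.

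The samples were rat vestibular ganglion cells taken by laser capture microdissection under calretinin immunofluorescence, and their pooled total RNA was hybridised to 1-colour (Cy5) arrays of 35126 probes. Per the series' design text, cells with calretinin were the calyx-bearing afferents, and cells without it were taken as dimorphic or bouton. Each group had 2 arrays, assigned by title, since the description field calls all 4 samples positive. For that reason each group is named here by its label, as libraries labelled positive or negative. No strain, age, sex or number of animals per pool is given in the sources used here, and nothing in the labels says that the arrays of a group came from separate animals or captures. The p-values then measure only the spread between these arrays, which may be technical, and the small number of arrays limits precision throughout.

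Values are probe intensities on the authors' processed linear scale, and array medians lay between 0.9896 and 0.9916. Across 21070 probes tested, log2 values of the positive pair had r = 0.9896 and those of the negative pair 0.9944, against 0.9255 to 0.9282 for pairs from both groups. Calb2 encodes calretinin, the protein by whose immunofluorescence the cells were chosen, so its transcript checks the labels and is no finding. Read 5 table rows after its probe ID, its intensity was 309.2 ± 26.0 (SD, n = 2) in the positive and 133.8 ± 6.67 in the negative libraries, so the latter were not without calretinin transcript. Of 8 neuron markers read, Snap25 and Pou4f1 lay below the limit for dim probes. The other 6 had a summed intensity of 595 to 605 in the positive and 543 to 549 in the negative libraries. Most of this sum came from Thy1 (mean 343 against 326) and Uchl1 (196 against 167), so it says little about the rest. Both were read, like Calb2, 5 table rows after their probe IDs.

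Which value belongs to which name had to be settled first, because names and values of this table are out of step in its late part. Names of the early part were read at their own row, names of the late part 5 table rows later, and names between the parts were left out. Probes of 1 accession, of which 1 lay in the early part, tested this reading. Over 190 pairs within the early part, mean log2 intensities correlated at r = 0.44 at the own row. For 316 late probes, r was -0.16 at the own row and, over the 315 that could be read there, 0.31 at the row 5 later. No other offset from 1 row before to 8 rows later exceeded 0.093 in the late part. Pairs are not independent replicates, and the moderate size of r means that a late name is less sure than an early one. Of the other genes named with values below, Pecam1, Elavl3, Elavl4, Bfsp1, Lmnb1, Krt8, Krt14, Krt19, Csnk1a1, Macf1, Rest, Cpq, Podxl2, Myh10, Kantr, Cacna2d3, Tyrobp and Acta1 are late names. Probes of abundant families (ribosomal, proteasome, tubulin and respiratory chain subunits) gave the same offset, with a mean log2 intensity of 3.65 over 64 late probes at 5 rows later and 1.28 at their own row.

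**Figure D1:**
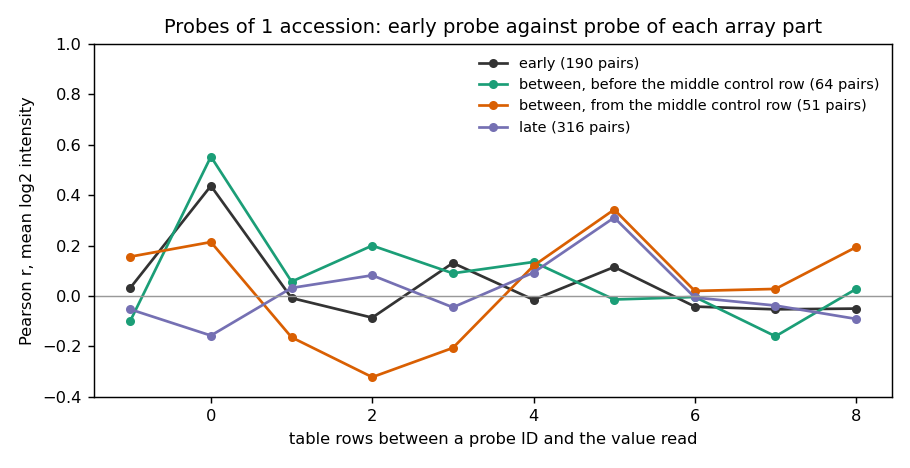
Pearson correlation (y axis) of the mean log2 intensity of an early probe with that of another probe of the same accession, read at each offset in table rows (x axis), for 4 parts of the array. The curve of the early part peaks at 0 rows (r = 0.44) and that of the late part at 5 rows (r = 0.31); the stretch between the parts peaks at 0 rows before its control row and at 5 rows from that row on.

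Within the left-out stretch, probes before the control row in its middle correlated best at their own row (r = 0.55 over 64 pairs, against -0.014 at 5 rows later). From that control row on they correlated at 0.34 at 5 rows later and 0.21 at their own row (51 pairs), and 16 probes of abundant families had 3.27 and 0.96. The Ina probe of this stretch lay before the control row and the Nefl probe after it. Values of the own row for Ina and of 5 rows later for Nefl are therefore given below as candidate readings, a choice made after the data were seen.

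Of the 4 members read, 3 were higher and 1 was lower in the libraries labelled positive, and all 4 had a limma p under 0.05 after Benjamini-Hochberg adjustment over all probes tested. The same call was made for 64.2% of all 21070 probes, 40.6% higher and 23.6% lower, so that the count of calls alone sets the members apart from nothing. The sizes differed between members. Nefh rose 3.08-fold, Nefm 1.49-fold and Ina 1.32-fold, while Prph fell 2.02-fold. A difference of at least 2-fold was called in 8.28% of all probes in the higher direction and 7.07% in the lower direction.

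Nefh encodes the heavy subunit, the last to join the filament in development and the one with the longest phosphorylated tail. Its probe read 3.69 and 4.05 on the arrays labelled positive and 1.37 and 1.15 on those labelled negative. The groups did not overlap, and both positive arrays were above both negative ones by more than the spread within either pair. The log2 change was 1.62 ± 0.11 (SE; adjusted p = 1.26e-06, limma, Benjamini-Hochberg), and 2.72% of tested probes had a larger one. This was the dimmest member probe, with group means of 3.87 ± 0.255 (SD, n = 2) and 1.26 ± 0.157 against a limit for dim probes of 0.456.

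Nefm encodes the medium subunit, which also carries a phosphorylated tail. Its intensities were 103 and 101 on the positive arrays and 68.9 and 67.7 on the negative arrays. Again the groups did not overlap, and the arrays of a group lay close together. The log2 change was 0.58 ± 0.07 (SE; adjusted p = 4.86e-05, limma, Benjamini-Hochberg). Bright probes as a whole were shifted the same way, with a median log2 change of 0.23 over the 5066 tested probes of mean log2 above 4, and 18.3% of those had a larger change than Nefm.

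Ina encodes α-internexin, a filament protein that copolymerises with the neurofilament triplet. Its late probe, read 5 rows later, had 22.6 and 20.7 on the positive arrays and 16.4 and 16.4 on the negative arrays. The log2 change was 0.40 ± 0.07 (SE; adjusted p = 0.00073, limma, Benjamini-Hochberg). Read at its own row the same ID would give 1.15 against 1.88 and a log2 change of -0.71, so the direction rests on the moved name. The probe of the same accession in the left-out stretch, read at its own row, had 19.5 and 19.2 against 14.8 and 14.6. Its log2 change was 0.40 ± 0.06 (SE; adjusted p = 0.000421, limma, Benjamini-Hochberg), the same to 2 decimals as that of the late probe. Of the 5066 bright probes, 33.1% had a larger change than the late Ina probe.

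Prph, the peripherin gene, was the member lower in the libraries labelled positive. It read 54.2 and 55.1 on the positive arrays and 109 and 112 on the negative arrays. The groups did not overlap, and the difference was far larger than the gap between the arrays of a group. Its log2 change was -1.01 ± 0.07 (SE; adjusted p = 1.24e-06, limma, Benjamini-Hochberg). Among the 5066 bright probes 1.80% had a lower log2 change, and among all tested probes 7.05%. In pooled tissue, fewer cells of a type and less RNA per cell cannot be told apart.

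Nefl, the light subunit on which the other neurofilament proteins assemble, has no settled value. At 5 rows after its probe ID the table held 183 and 180 on the positive arrays and 138 and 126 on the negative arrays. On the log2 scale that reading was 0.46 ± 0.08 higher (SE; limma, Benjamini-Hochberg adjusted p = 0.000456), which lost its call with cyclic loess normalization (0.18, adjusted p = 0.0614). At its own row the table held 0.349 and 0.211 against 0.182 and 0.131, all below the limit for dim probes. Among the 6 rows from the own row to 5 rows later, the last was by far the brightest, and the others reached at most 11.1 on any array.

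**Figure D2:**
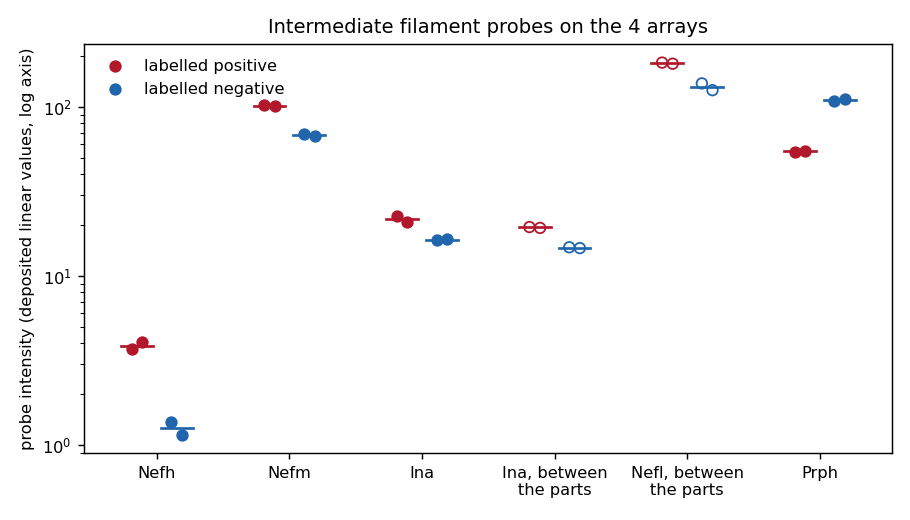
Probe intensity on each array (log axis, deposited linear values) for the member probes; points are single arrays, bars are group means, red is labelled positive and blue labelled negative, and open points are probes of the left-out stretch (Ina at its own row, Nefl 5 rows later). Nefh, Nefm and Ina lie higher in red, and Prph lies higher in blue (109 and 112 against 54.2 and 55.1). How often the groups separate over the whole array was not counted, so separation alone sets no probe apart.

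Promoter sequences from RefSeq (GRCr8) were matched for 2 of the 5 members, Prph and Ina, and are shown because they were the ones matched. Each line gives the 100 bases before the RefSeq start, 5′ to 3′, with matches on either strand in capitals, the motifs being the TATA box, searched as TATAAA, the core of the Sp1-type box, searched as GGGCGG, and the sequence bound by nuclear factor Y, searched as CCAAT. Nefh, Nefm and Nefl were not matched.
Prph, GRCr8 chr7:132097189-132097288, plus strand: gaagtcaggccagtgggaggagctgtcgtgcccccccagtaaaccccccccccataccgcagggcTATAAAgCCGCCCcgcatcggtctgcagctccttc
Ina, GRCr8 chr1:255838029-255838128, plus strand: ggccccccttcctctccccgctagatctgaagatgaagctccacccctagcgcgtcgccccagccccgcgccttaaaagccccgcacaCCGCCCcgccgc
The Prph window held 1 TATAAA, whose first base lay 35 bases before the start, followed by 1 match to GGGCGG on the minus strand from 28 bases before it. The Ina window held 1 match to GGGCGG on the minus strand, from 12 bases before the start, and neither TATAAA nor CCAAT. Over 33365 promoter windows of the same length, 5.78% held TATAAA, 21.7% GGGCGG and 17.1% CCAAT. Guanine and cytosine made up 66.0% of the Prph window and 71.0% of the Ina window, against a median of 54.0%. The motifs do not overlap each other, and a match describes letters only.

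The scaling of the arrays sets how large the smaller rises are. With quantile normalization the log2 changes were 1.60 for Nefh, 0.36 for Nefm, 0.19 for Ina and -1.25 for Prph. Cyclic loess normalization gave 1.57, 0.32, 0.20 and -1.27. Every one of these 8 values kept its direction and its call (largest adjusted p = 0.0358, limma, Benjamini-Hochberg). Over all tested probes the median change was 0.11 log2 units on the deposited scale, 0.01 after quantile and -0.01 after loess normalization, and the share of calls in the higher direction was 63.3%, 53.5% and 49.6%.

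**Figure D3:**
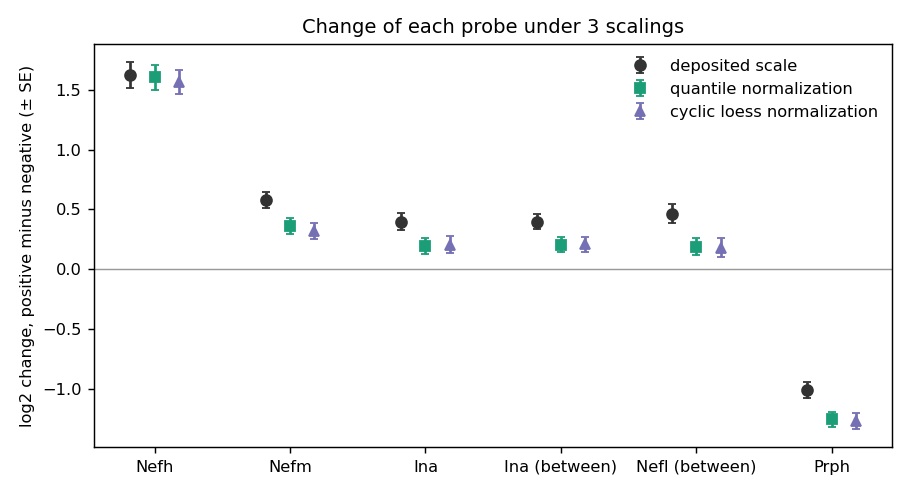
Log2 change (positive minus negative, y axis) of each member probe with its standard error, on the deposited scale and after 2 normalizations; "between" marks probes of the left-out stretch. Nefh stays near 1.6 and Prph moves from -1.01 to -1.27, while Nefm, Ina and Nefl keep a positive sign at smaller values.

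Ratios between member probes on the same array do not depend on a common scale factor. They show unequal change between subunits and not stoichiometry, since probes differ in brightness for the same amount of RNA. All 6 pairs of the 4 members read were compared. The Nefm/Prph ratio was 1.89 and 1.84 on the positive arrays and 0.633 and 0.606 on the negative arrays, a 3.01-fold difference (1.59 on the log2 scale; pooled SD of the log2 ratio 0.04). Both positive arrays lay above both negative ones, by far more than the arrays of a group differed.

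The Nefh/Prph ratio differed most, at 0.0680 and 0.0735 against 0.0126 and 0.0103, or 6.22-fold. Ina/Prph was 0.417 and 0.377 against 0.151 and 0.147, a 2.66-fold difference. Among the members that rose, Nefh/Nefm was 0.0359 and 0.04004 against 0.0199 and 0.0170 (2.07-fold), and Nefh/Ina 2.34-fold higher in the libraries labelled positive. Nefm/Ina differed least, with 4.54 and 4.87 against 4.20 and 4.11, a log2 difference of 0.18 with a pooled SD of 0.05. The 6 ratios were formed from only 4 probes. How often the groups separate over the whole array was not counted, so separation alone sets no ratio apart.

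With 2 arrays against 2, the two-sided exact permutation test gave p = 0.333 for each of the 6 ratios, the smallest it allows, and 0.333 after Benjamini-Hochberg adjustment. With the candidate reading of Nefl, Nefm/Nefl was 0.560 and 0.560 against 0.499 and 0.538, a log2 difference of 0.11. Ina/Nefl was 0.123 and 0.115 against 0.119 and 0.131, so that its groups overlapped. Prph/Nefl was 0.296 and 0.305 against 0.788 and 0.888.

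**Figure D4:**
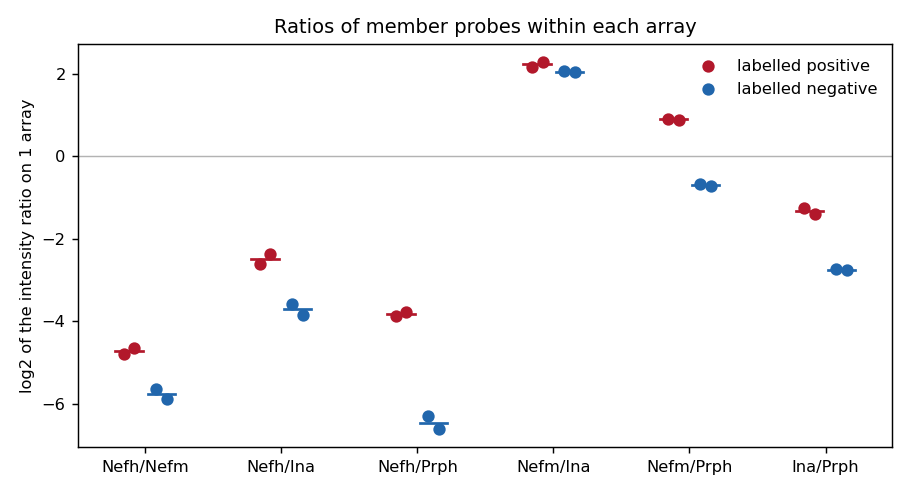
Log2 of the intensity ratio of 2 member probes on the same array (y axis) for the 6 pairs of members read (x axis); points are arrays and bars group means. Every ratio to Prph is higher on the arrays labelled positive (red), by 1.59 for Nefm/Prph, and Nefm/Ina differs by 0.18; the position of a pair on the y axis depends on the brightness of its probes and is not compared between pairs.

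Marker genes of other cell types also differed in the same comparison, in which 40.6% of all probes were called higher and 23.6% lower. Of the 21070 probes, 6955 were called higher and 6052 lower with quantile normalization, and 6685 and 6784 with loess. All 4 tested central glia markers were lower in the libraries labelled positive, among them Mog, a protein of central myelin, with 1.0001 ± 0.0209 (SD, n = 2) against 42.9 ± 1.25. Aqp4, 1 of these 4, read 0.344 and 0.603 on the positive arrays, on either side of the limit for dim probes (0.456). It passed the filter through the negative libraries, where it is high, so its call counts for little. The summed intensity of these 4 markers was 4.22 to 4.62 in the positive and 209 to 219 in the negative libraries. Of 6 tested Schwann and satellite glia markers 5 were lower and 1 was not called, led by Lgi4, a secreted protein of peripheral glia (log2 change -4.82), with summed intensities of 142 to 151 against 277 to 291.

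Of 5 tested endothelial and mural markers 4 were lower and 1 was not called, led by Pecam1, an endothelial adhesion protein (log2 change -1.92), with sums of 15.5 to 16.2 against 42.05 to 43.97. Blood and immune markers were split, with Cd68 higher (0.43), Alas2 lower (-1.34) and sums of 99.1 to 102 against 160 to 170.4. Of the 5 tested, 3 were higher and 2 lower, and 1 was higher with either normalization. Fibroblast markers summed to 177 to 182 against 124 to 132, with Ogn higher (1.08) and Dcn lower (-0.97), 1 higher and 2 lower in all of 4 tested. Ogn, with a mean of 117 against 55.1, made up the largest part of these sums. Of 2 hair cell markers Ush1c was lower (-0.41), with sums of 8.20 to 8.67 against 10.1 to 10.3; both were lower after loess normalization.

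Of 6 neuron markers tested, 3 were higher, 1 was lower and 2 were not called, with a median log2 change of 0.17. Elavl3, a neuronal RNA-binding protein, had a log2 change of 0.24, and Elavl4, a relative of it, of -0.88. With either normalization none was higher and 2 were lower. The part of glial, vascular and blood RNA in the difference of Prph and of the neurofilament genes was not tested.

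The 3 genes closest to each member were sought among 8168 tested genes by the root mean square distance of log2 values centred over the 4 arrays. Closest to Prph were Tyrobp, an adaptor protein of macrophages and other myeloid cells (distance 0.0158), Caskin2 (0.0181) and Acta1, the skeletal muscle actin (0.0188). Tyrobp had 27.4 and 28.1 on the positive arrays against 56.0 and 55.9. Closest to Nefh were Cpq (0.0365), Fzd1, a Wnt receptor (0.0372), and Podxl2 (0.0380). Fzd1 had 6.32 and 7.04 against 2.25 and 2.02.

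Nefm was matched most closely by Homer2, a postsynaptic scaffold protein (0.0058), Mrpl21, a mitochondrial ribosomal protein (0.0062), and Myh10, a non-muscle myosin (0.0068). Ina was followed by Kantr (0.0017), Zmat2 (0.0094) and Cacna2d3, a calcium channel auxiliary subunit (0.0105). With 4 arrays in 2 groups, this distance is set mainly by the log2 change and the gaps between the arrays of a group.

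Other intermediate filament genes did not move as one. All 4 that were tested passed the threshold, 2 higher and 2 lower, on the deposited scale and with either normalization. Vim, the filament protein of glia, fibroblasts and endothelium, had 360.9 ± 1.92 (SD, n = 2) against 240.1 ± 12.1 in the negative libraries, and Bfsp1, a filament protein of the lens, 4.10 ± 0.149 and 2.77 ± 0.0880. Nes, which encodes nestin of progenitor and some glial cells, had 2.44 ± 0.528 and 5.03 ± 0.155. Gfap, the filament protein of astrocytes and some peripheral glia, had 1.04 ± 0.0739 and 44.5 ± 2.41, a log2 change of -5.42, a larger size than that of the 4 members read.

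Among lamins, the filaments of the nucleus, Lmnb1 was called higher (log2 change 0.19, adjusted p = 0.0478, limma, Benjamini-Hochberg) and Lmna was not called. With either normalization neither was called. Of 5 keratins tested, 3 were higher, 1 lower and 1 not called, and with loess normalization 2 were lower. Krt8, 1 of the 3 higher, had 1.17 against 0.289, below the limit for dim probes in the negative libraries, so it passed the filter only through the group where it is high and its call counts for little. Krt19, a keratin of simple epithelia, had 9.44 ± 1.05 against 2.88 ± 0.0436, and Krt14, a keratin of basal epithelial cells, 1.498 ± 0.0278 against 3.797 ± 0.321.

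**Figure D5:**
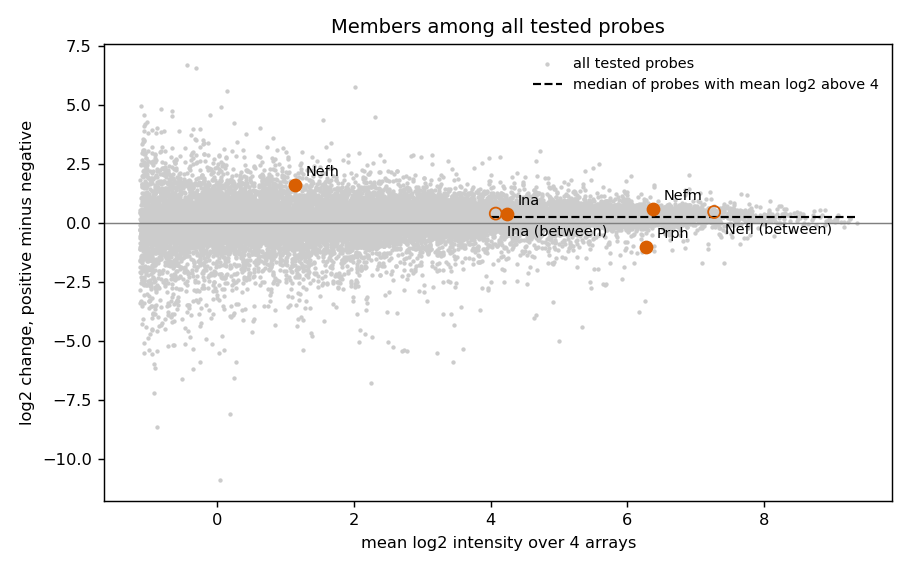
Log2 change (positive minus negative, y axis) against mean log2 intensity (x axis) of 21070 tested probes (grey) with the member probes in orange; open circles are probes of the left-out stretch, and the dashed line is the median of probes with mean log2 above 4 (0.23). Nefm, Ina and Nefl lie above that line by less than 0.5, Nefh lies at 1.62 and Prph at -1.01.

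Genes that act on neurofilaments were counted together with the other filament, lamin and keratin genes above, in 7 lists of which 58 genes were tested. Of these 29 were higher, Krt8 among them, and 11 lower, so 69.0% were called where 64.2% of all probes were. After quantile normalization 23 were higher and 18 lower, and after loess 23 and 19.

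Kinases and phosphatases that act on the tails of the heavy and medium subunits had 8 higher and 1 lower of 13 tested. Of all probes 40.6% were called higher and 23.6% lower. The median log2 change of the list was 0.38, against 0.11 over all probes. With either normalization 7 were higher and 4 lower. Csnk1a1, a casein kinase gene, had 5.83 ± 0.196 (SD, n = 2) against 2.35 ± 0.106.

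Linkers and transport genes had 5 higher and 2 lower of 14 tested (median 0.14), 4 and 2 after quantile and 4 and 3 after loess normalization. Macf1, which links microtubules to actin, had 6.80 ± 0.0618 against 3.46 ± 0.0105. Dync1i1, a dynein intermediate chain, had 14.2 ± 0.580 against 17.0 ± 0.270. The heavy chain gene Kif5a of the kinesin that carries neurofilaments had 116.8 ± 6.95 against 108.7 ± 1.502 and was not called.

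Genes of filament turnover and assembly had 7 higher and 3 lower of 12 tested (median 0.26), 4 and 5 after quantile and 4 and 4 after loess normalization. The members with the smallest p were both small heat shock proteins. Hspb8 had 31.3 ± 1.84 against 16.9 ± 0.279, and Cryab, also abundant in glia, 1.66 ± 0.0513 against 3.42 ± 0.0724. Of 8 regulators of neuronal transcripts 3 were higher and 2 lower (median 0.05), 3 and 4 with either normalization. Rest, a repressor of neuronal genes, had 8.98 ± 0.236 against 6.37 ± 0.185, and Elavl4, which binds neuronal messenger RNA, 0.752 ± 0.0190 against 1.39 ± 0.0596.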

How the data were processed

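The deposited values are probe intensities, processed by the authors on a linear scale. The sources used here do not give the scanner, the background correction or the normalization, and any centring by gene is unknown. Of 35126 probes, 16677 had 1 symbol in the platform annotation, 163 several and 18286 none; a rat gene table (GRCr8), used to update symbols, held the gene ID of 16649 of the first. Missing codes, zeros and negative values (532 to 776 per array zero or negative) took the array's 1st percentile of positive values before log2. Probes with a mean log2 below the 40th percentile (intensity 0.456) were left out. The remaining 21070 were fitted with limma 3.58.1 in R 4.3.3 (lmFit, eBayes with a trend, two-sided), tested on simulated data first, with Benjamini-Hochberg adjustment over all. The brightest probe stood for a gene. Ratios used SciPy 1.17.1 and figures matplotlib 3.10.9. Log2 changes are positive minus negative.

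Genes named were all members, every tested other intermediate filament gene, the called gene of smallest p in each direction of each list, Calb2 and the 3 genes nearest each member. Of the genes this names, 1 is not reported here. Kif5a, Krt8, Lmna, Snap25, Pou4f1, Thy1, Uchl1 and Aqp4 were added with their values known. The members and lists were chosen with earlier results of these data known. Alternatives were 2 normalizations, other filters, floors and variance priors, a replicate block, means over probes, names at their own ID and leaving out each array. Deviations of same-numbered arrays were unrelated (r = 0.000316 over the tested probes), so the numbers were not taken to pair them.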

Additional observations from a re-analysis of the deposited data

How the results depend on the processing

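With all names at their own ID, the log2 change of Ina reversed to -0.711, and ratios with Ina became 2.33 (Nefh/Ina), 1.29 (Nefm/Ina) and 0.302 (Ina/Prph) on the log2 scale, since another value is then read. With quantile normalization Nefh/Nefm was 1.24, Nefh/Ina 1.41 and Nefh/Prph 2.86. With loess Nefh/Nefm was 1.25, Nefh/Prph 2.83 and Nefm/Ina 0.113. The genes of the 7 lists called lower, 11 on the deposited scale, numbered 18 with quantile and 19 with loess normalization. The cause of these shifts was not tested. Of 167 values under alternatives, 155 kept their direction and their side of the threshold. Counts had to stay within 1.5 times, and ratios to move by less than 1 SD. Many of these values had no room to move. The replicate block, the other floor and means over probes left every ratio as it was. Filters and variance priors left the log2 changes as they were and could alter only the calls. The candidate readings between the parts are not in this tally.

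Leaving out each array in turn gave log2 changes of 1.495 to 1.751 for Nefh, 0.56 to 0.59 for Nefm, 0.34 to 0.46 for Ina and -1.03 to -0.99 for Prph. Each such fit takes the spread of the remaining pair for the single array, so only sizes are given. With the replicate number as a block, 13711 probes and 41 list genes were called, against 13530 and 40 in the main fit, and no member changed its call. The 2 readings of probes between the parts were added after the data were seen. Only 2 arrays per group and the dim Nefh probe limit the precision.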
